A study of Mus musculus with 12 samples.

Results

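The intestinal stem cell and Wnt target genes comprised 10 genes: Lgr5, Olfm4, Ascl2, Smoc2, Axin2, Rnf43, Znrf3, Sox9, Lrig1 and Bmi1. Each was followed through the array probe sets whose platform annotation names that gene and no other, which gave 1 probe set per gene, 10 of the 23991 on the array, where 21557 probe sets name 1 gene each and cover 21408 genes. RNA came from the small intestine of wild-type BALB/c recipients on day 14 after allogeneic haematopoietic cell transplantation. All mice had been irradiated and had received bone marrow and T cells of a C57BL/6N donor, a model of acute graft-versus-host disease, where T cells of the donor attack the gut among other organs. The TUDCA group (6 arrays) received tauroursodeoxycholic acid, a taurine-conjugated bile acid, at 200 mg/kg by daily intraperitoneal injection, and the vehicle group (6 arrays) received 200 µl of vehicle in the same way. Mice without transplantation were not analysed here, so every value below is set within transplanted mice. The comparison asks whether the stem cell and Wnt programme of the crypt differed with TUDCA.

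Intestinal stem cells sit at the base of the crypts, between Paneth cells, and renew the epithelium. Canonical Wnt signalling maintains them: a Wnt ligand binds a Frizzled receptor and an LRP co-receptor, beta-catenin is spared from destruction, and it activates target genes together with TCF and LEF factors. R-spondins amplify the signal by binding LGR receptors and clearing the ubiquitin ligases RNF43 and ZNRF3, which otherwise remove Frizzled receptors, so that both ligases act as brakes that Wnt itself induces. In graft-versus-host disease, stem cells and Paneth cells of the crypt are known to be damaged.

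Among the genes with a promoter sequence, Olfm4 carried the motif matches closest to the transcription start, and its promoter is shown with that of Ascl2, a Wnt-induced gene, as a contrast. RefSeq's table for the build GRCm38.p6 held 7 promoters for 6 of the 10 genes (Bmi1, Lrig1, Ascl2, Rnf43, Axin2 and Olfm4). The 250 bases before each start were searched on both strands. The runs below are the 120 bases before the start, 5′ to 3′ on the gene's strand, at chr14:80000182-80000301 (+ strand) for Olfm4 and chr7:142969265-142969384 (- strand) for Ascl2. Capitals mark an NF-kappaB consensus match and, nearer the start, a match to the RBPJ motif TGGGAA, the letters bound by the DNA-binding partner of Notch.
Olfm4: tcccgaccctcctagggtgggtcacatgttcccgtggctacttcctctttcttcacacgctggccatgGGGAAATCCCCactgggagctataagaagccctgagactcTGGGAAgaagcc
Ascl2: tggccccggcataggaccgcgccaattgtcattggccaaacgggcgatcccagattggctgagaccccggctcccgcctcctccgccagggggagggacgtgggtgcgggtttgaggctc

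The NF-kappaB consensus matched at 2 overlapping positions in Olfm4, 52 and 51 bases before the start, and in none of the other 5 genes. Of all 32851 promoters in the table, 7.25% held it. TGGGAA stood 12 bases before the start of Olfm4 and 246 bases before that of Bmi1, against 21.6% of all promoters. The core CTTTG, the letters that TCF and LEF factors recognise, was absent from the searched bases of all 7 promoters, whereas 48.6% of all promoters held it. CG pairs numbered 4 in the 250 bases before Olfm4 and 19 before Ascl2. These matches describe letters in a short window and not binding.

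None of the 10 genes passed the threshold of an adjusted p of 0.05 between TUDCA and vehicle, in either direction. The test was limma's, fitted to all 23991 probe sets with terms for treatment and for the range of sample numbers described below, and Benjamini-Hochberg adjustment over all of them. Of all probe sets 2.52% passed, 1% higher and 1.52% lower with TUDCA. At an unadjusted p under 0.05, 1 of the 10 genes differed (Lgr5), against 14.1% of all probe sets. The values of the 2 groups overlapped for all 10 genes, and 1.98% of all probe sets had groups that did not overlap. Differences were positive for 7 genes and negative for 3, with a median of 0.08 on the log2 scale, beside a median of 0.01 and 53.3% positive over all probe sets. Standard errors lay between 0.07 and 0.15, and the 95% confidence intervals of all 10 genes lay within 1 log2 unit of 0 and those of 7 genes within 0.5. The number of arrays limits this precision, and in whole tissue a change in the number of stem cells and a change in RNA per cell cannot be told apart.

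**Figure D1:**
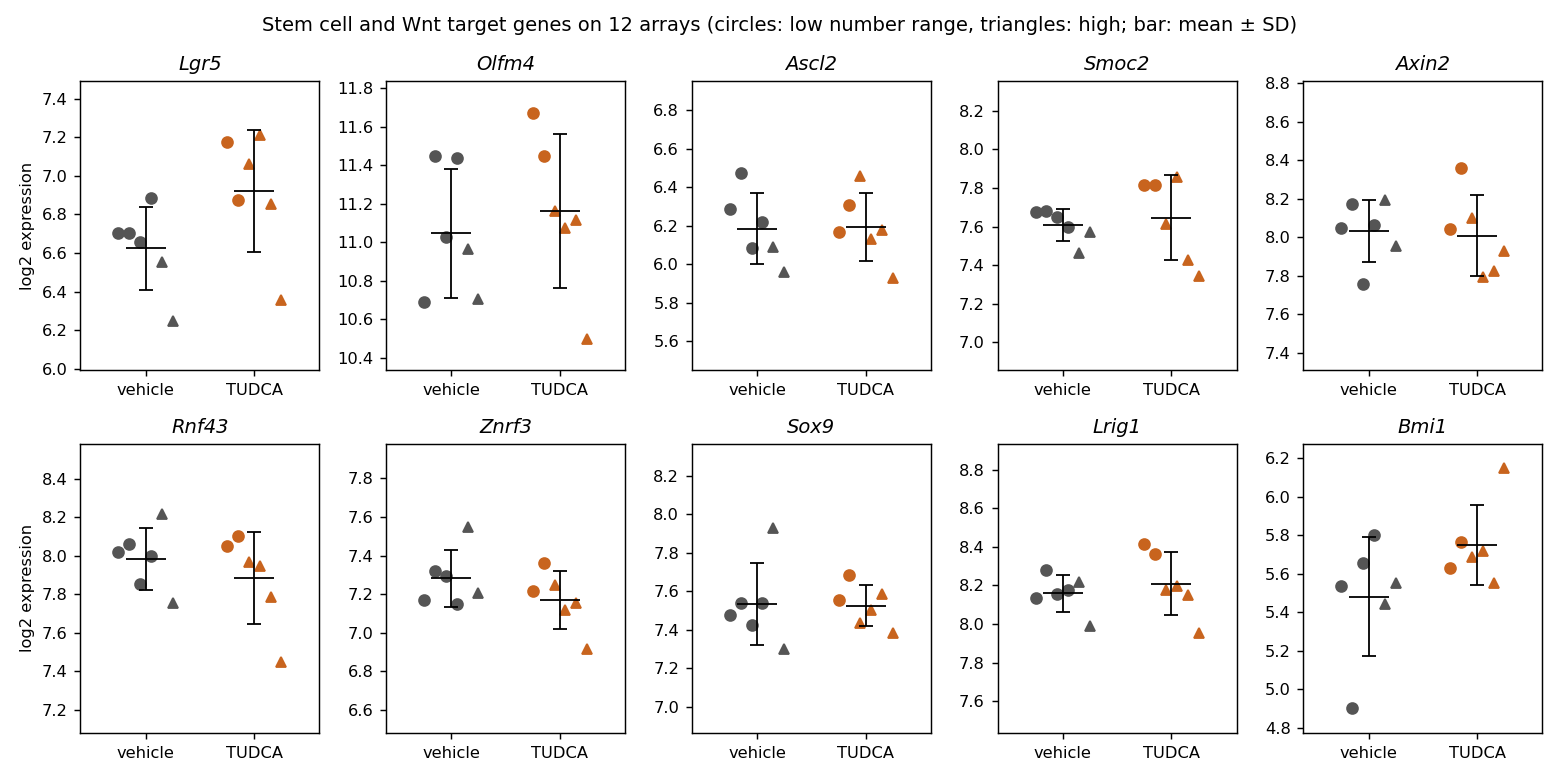
Log2 expression of the 10 stem cell and Wnt target genes on each of the 12 arrays, in vehicle (grey) and TUDCA (orange), with circles for the low and triangles for the high range of sample numbers and bars for the mean ± SD. The groups overlap in every panel; the TUDCA values of Lgr5 run from 6.35 to 7.21 and the vehicle values from 6.25 to 6.88.

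The labels number the samples in separate ranges. The low range held 4 vehicle and 2 TUDCA arrays, and the high range 2 vehicle and 4 TUDCA arrays. What the ranges mean is not stated, so each difference was estimated within them. Correlations between arrays across probe sets ran from 0.984 to 0.993, and array medians from 5.90 to 5.95 on the log2 scale. Normalisation makes medians alike, and such correlations mostly follow level differences between genes. Neither value shows that the arrays were alike in cell makeup. The mean of the Paneth cell markers was 8.22 on vehicle replicate 5 and 7.24 to 7.59 on the other vehicle arrays. One field of the labels names CXCL12-abundant reticular cells in place of small intestine. The 12 measured epithelial markers were all above the median level of all probe sets, with an average per array between 10.91 and 11.20. The 10 markers of reticular cells averaged 6.26 to 6.66, 6 of them above that median.

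Lgr5 had the largest difference of the 10 genes. It encodes the R-spondin receptor that defines the columnar stem cells of the crypt base, and lies at chr10:115450314-115587780 (GRCm38.p6). Its log2 level in TUDCA ran from 6.35 through a median of 6.97 to 7.21, and in vehicle from 6.25 through 6.68 to 6.88. Of the 6 TUDCA arrays 3 lay above the highest vehicle array and 5 above the vehicle mean of their own number range, while TUDCA replicate 6 lay near the lowest vehicle array. The difference was 0.38 ± 0.13 on the log2 scale (SE, n = 6 and 6 arrays), or 1.30-fold, with a 95% interval of 1.07- to 1.58-fold and an adjusted p of 0.183 by limma. It was 0.29 within the low and 0.47 within the high number range. Without TUDCA replicate 6, limma gave 0.46 and an adjusted p of 0.0386, and without vehicle replicate 6 an adjusted p of 0.473. Whether Lgr5 is called thus rests on single arrays.

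Olfm4 encodes a secreted glycoprotein that marks the same columnar cells, at chr14:80000302-80023141. TUDCA arrays ran from 10.50 through 11.14 to 11.67 and vehicle arrays from 10.69 through 11.00 to 11.44 on the log2 scale. The TUDCA group thus held both the lowest and the highest array for this gene. The log2 difference was 0.27 ± 0.15 (SE, n = 6 and 6), with an interval from -0.05 to 0.59 and an adjusted p of 0.46 by limma. Olfm4 also had the widest gap between number ranges, 0.46 log2 units lower in the high range (adjusted p = 0.298, limma). No probe set passed between the ranges (0% of all), and 9 of the 10 genes were lower in the high range, Bmi1 being the exception. The share of all probe sets lower in the high range was not computed. The 9 genes also correlated with one another, as given below, so this count is not read as a result.

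Ascl2 and Smoc2 complete the markers of columnar stem cells. Ascl2 is a transcription factor that Wnt induces and that keeps stem cell identity, at chr7:142966822-142969264. Ascl2 levels in TUDCA ran from 5.93 through 6.17 to 6.46 and in vehicle from 5.96 through 6.15 to 6.47, nearly the same span. The log2 difference was 0.06 ± 0.10 (SE, n = 6 and 6; adjusted p = 0.852, limma), with an interval from -0.15 to 0.27. Smoc2 encodes a secreted calcium-binding matrix protein enriched in these cells, at chr17:14279490-14404790. On TUDCA arrays Smoc2 ran from 7.34 through 7.71 to 7.85 and in vehicle from 7.46 through 7.62 to 7.68. The TUDCA group reached both lower and higher, with an SD of 0.22 against 0.08, and 3 of its arrays lay above the highest vehicle array. The log2 difference was 0.10 ± 0.08 (SE, n = 6 and 6; adjusted p = 0.646, limma), with an interval from -0.07 to 0.28.

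Axin2, Rnf43 and Znrf3 are targets of Wnt signalling that feed back on it. Axin2 encodes a scaffold of the complex that destroys beta-catenin and is a common readout of pathway activity, at chr11:108917828-108950783. With TUDCA, Axin2 ran from 7.79 through 7.99 to 8.36 and in vehicle from 7.76 through 8.06 to 8.19. The groups lay over each other, and the log2 difference was 0.01 ± 0.10 (SE, n = 6 and 6; adjusted p = 0.974, limma). The interval from -0.20 to 0.23 bounds a change of Axin2 at 0.868- to 1.18-fold. The sign of this difference changed with the setting and is not read as a direction.

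Rnf43, the first of the 2 membrane ubiquitin ligases, lies at chr11:87663087-87735539. In TUDCA, Rnf43 values ran from 7.45 through 7.96 to 8.10 and in vehicle from 7.76 through 8.01 to 8.21. TUDCA replicate 6 was the lowest of all 12 arrays, and the log2 difference was -0.05 ± 0.11 (SE, n = 6 and 6; adjusted p = 0.89, limma), with an interval from -0.28 to 0.18. Znrf3, the other ligase, lies at chr11:5276329-5444847. Znrf3 levels in TUDCA ran from 6.91 through 7.19 to 7.36 and in vehicle from 7.15 through 7.25 to 7.55. Only 1 TUDCA array lay above the vehicle mean of its own number range, and the log2 difference was -0.11 ± 0.09 (SE, n = 6 and 6; adjusted p = 0.67, limma), with an interval from -0.30 to 0.09.

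Sox9 encodes a transcription factor of crypt progenitors and stem cells that is needed for Paneth cells to form, at chr11:112782210-112787757. On TUDCA arrays Sox9 ran from 7.39 through 7.53 to 7.68 and in vehicle from 7.30 through 7.51 to 7.93. Vehicle replicate 5 was the highest array, and the vehicle group held the widest spread. The log2 difference was -0.01 ± 0.10 (SE, n = 6 and 6; adjusted p = 0.99, limma), with an interval from -0.22 to 0.21. Without vehicle replicate 5 it was 0.15, with an adjusted p of 0.346 by limma.

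Lrig1 and Bmi1 mark cells that have been described as slowly dividing or reserve stem cells. Lrig1 encodes a membrane protein that dampens ErbB receptor signalling, at chr6:94604529-94700298. With TUDCA, Lrig1 ran from 7.95 through 8.19 to 8.42 and in vehicle from 7.99 through 8.17 to 8.28. Of the TUDCA arrays 2 lay above every vehicle array, both of the low number range, and the log2 difference was 0.11 ± 0.07 (SE, n = 6 and 6; adjusted p = 0.537, limma), with an interval from -0.04 to 0.26.

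Bmi1 encodes a subunit of the chromatin repressor PRC1, expressed well beyond stem cells, at chr2:18677018-18686629. In TUDCA, Bmi1 values ran from 5.55 through 5.70 to 6.15 and in vehicle from 4.90 through 5.54 to 5.80. All 6 TUDCA arrays lay above the vehicle mean of their own number range, and 1 above every vehicle array. The log2 difference was 0.25 ± 0.15 (SE, n = 6 and 6; adjusted p = 0.481, limma), with an interval from -0.06 to 0.56. Its mean level was at the 44.4th percentile of all probe sets, the only 1 of the 10 genes below the median, where array values compress differences.

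**Figure D2:**
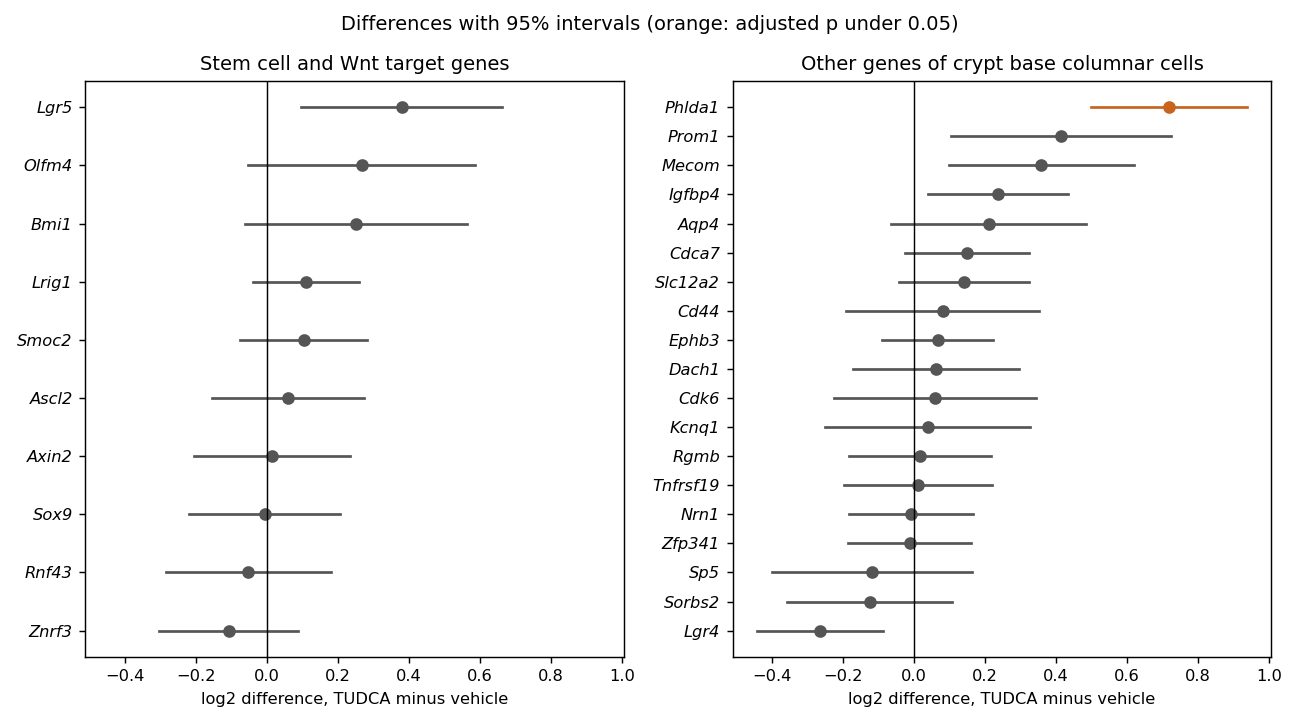
Log2 differences, TUDCA minus vehicle, with 95% confidence intervals for the 10 stem cell and Wnt target genes (left) and the 19 other measured genes of crypt base columnar cells (right), with genes past the threshold in orange. The interval of Lgr5 is the only one on the left that excludes 0, without passing after adjustment; on the right, Phlda1 at 0.72 passed.

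The differences within the number ranges were not of one sign. In the low range 9 of the 10 genes were higher with TUDCA and in the high range 6, and 5 genes had unlike signs. Axin2 gave 0.19 in the low and -0.16 in the high range, Znrf3 gave 0.05 and -0.27, Rnf43 0.10 and -0.20, and Sox9 0.13 and -0.14. Ascl2 went the other way, with -0.03 in the low and 0.15 in the high range. The test of this difference, limma's interaction of treatment and number range, called none of the 10 genes (lowest adjusted p = 0.673, for Znrf3), and none had an unadjusted p under 0.05. Over all probe sets 0% passed the interaction after adjustment and 7.68% had an unadjusted p under 0.05. The test thus did not separate these unlike signs from the spread between arrays.

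The same few arrays were at the extremes for most of the 10 genes. TUDCA replicate 6 was the lowest TUDCA array for 8 of them, and vehicle replicate 6 the lowest vehicle array for 5. Vehicle replicate 5 was the highest vehicle array for Axin2, Rnf43, Znrf3 and Sox9. The mean over the 10 genes ran from 7.39 to 7.81 in TUDCA and from 7.42 to 7.69 in vehicle. The lowest array of each group was its replicate 6.

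Across the 12 arrays 37 of the 45 pairs of genes correlated positively, with a median Pearson r of 0.50, and 33 did so with a median of 0.43 after centring within treatment and number range. Without Bmi1, all 36 pairs had a positive r before centring, with a median of 0.54. With Bmi1, 1 of 9 pairs was positive, with a median of -0.32 before and -0.51 after centring. Between these genes and all other single-gene probe sets, 52.6% of pairs were positive, with a median r of 0.02, and 52.9% after centring. The highest r among the 10 was 0.88, between Olfm4 and Lrig1, and Rnf43 and Znrf3, the paired ligases, reached 0.81. The lowest was -0.58, between Znrf3 and Bmi1. These 12 points share tissue pieces of unknown cell makeup and the normalisation of 1 array set, and are given as a description.

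**Figure D3:**
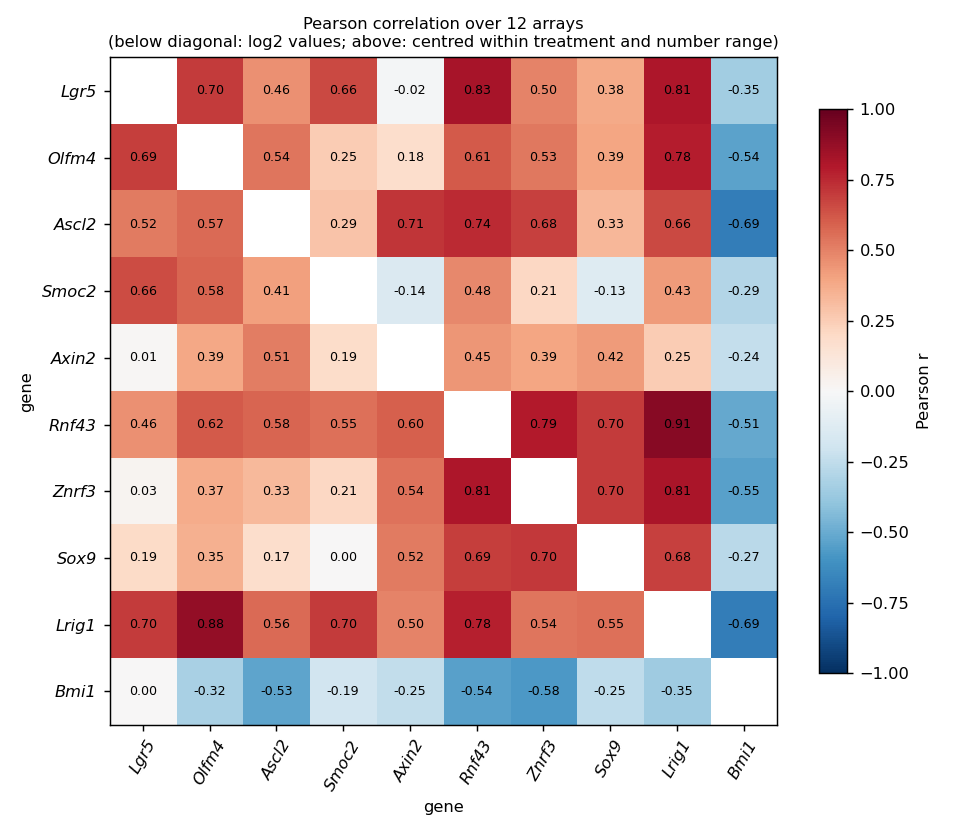
Pearson correlations between the 10 genes over the 12 arrays, as measured (below the diagonal) and after centring within treatment and number range (above). All pairs without Bmi1 are positive below the diagonal, up to 0.88 for Olfm4 and Lrig1; the row and column of Bmi1 stand apart, with a median of -0.32.

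The genes most like Lgr5 over the 12 arrays were Eif1ad (r = 0.93), Elp3 (0.93), Skp2 (0.92) and Usp24 (0.90), with r between 0.86 and 0.91 after centring within treatment and number range. Those most like Olfm4 were Ankrd54 (0.95), Rexo4 (0.92), Msra (0.92) and Ano7 (0.92), between 0.85 and 0.91 after centring. They are the highest of all single-gene probe sets and none passed the threshold between TUDCA and vehicle (adjusted p from 0.186 to 0.715, limma). Sox9 had the highest r of the 10 genes with the mean of 9 Paneth cell genes, 0.82, and 0.81 after centring. Znrf3 gave 0.69 and 0.55, Rnf43 0.58 and 0.50, and Lrig1 0.53 and 0.61. The r of Lgr5 was 0.10 and 0.43, that of Ascl2 -0.14 and 0.02, and that of Bmi1 -0.10 and -0.04. Means of other cell types also correlated with single genes, with either sign. The pairs that follow are examples out of all genes and lists, and no background is set beside them. Centring removes a mean per treatment and number range, so fewer than 12 points vary freely in the centred values. Lgr5 gave an r of 0.71 with the crypt-supporting stroma (0.83 after centring), 0.44 with endothelium (0.76) and -0.08 with leukocyte markers (0.74). Its r was 0.02 with the epithelial markers (-0.64 after centring) and -0.32 with the enteroendocrine and tuft cell markers (-0.72). Between Olfm4 and endothelium r was 0.59, and 0.84 after centring. Vehicle replicate 5 was the highest array both for Sox9, at 7.93, and for the Paneth cell mean, at 8.22. How far the r of Sox9 rests on this array was not tested.

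**Figure D4:**
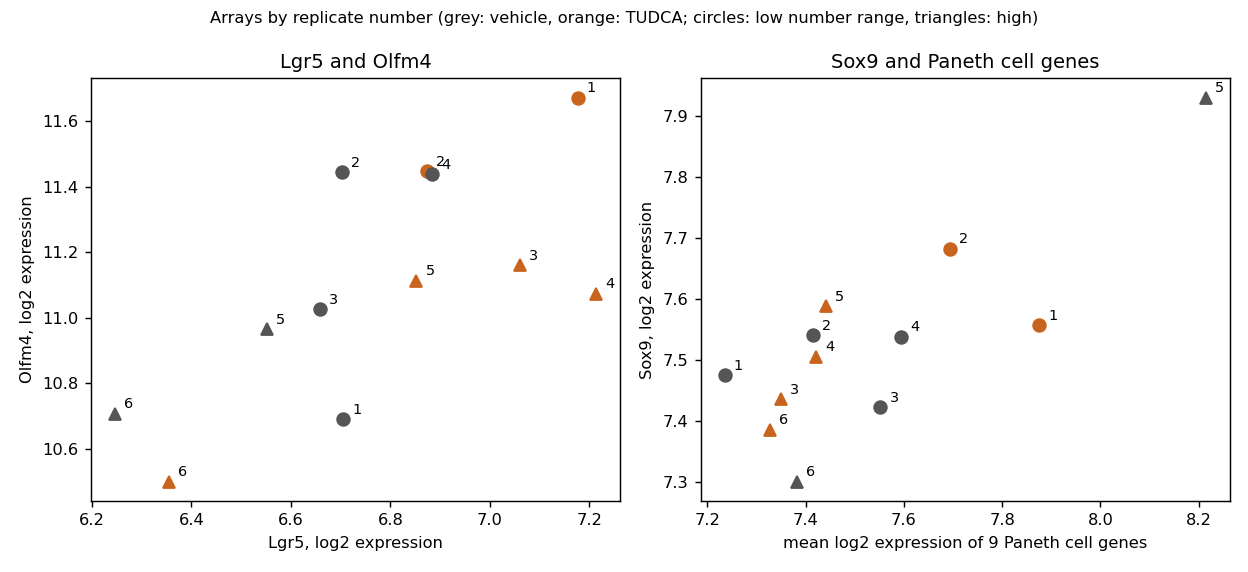
Log2 expression of Olfm4 against Lgr5 (left) and of Sox9 against the mean of 9 Paneth cell genes (right), 1 point per array, numbered by replicate, with vehicle in grey, TUDCA in orange, circles for the low and triangles for the high number range. Both replicates numbered 6 lie at the lower left of the left panel, and vehicle replicate 5 lies apart at the upper right of the right panel, at 7.93 for Sox9.

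Of the other genes of columnar stem cells, 19 of 22 were measured, and 1 passed the threshold. Phlda1, a pleckstrin-homology protein found in crypt stem cells, was higher with TUDCA by 0.72 ± 0.10 on the log2 scale (SE, n = 6 and 6; adjusted p = 0.00227, limma). Phlda1 levels in TUDCA ran from 7.09 through 7.38 to 7.67 and in vehicle from 6.39 through 6.65 to 6.77. The groups did not overlap, unlike those of Lgr5 or Olfm4. Within the high range of 6 arrays alone the difference was 0.58 with an adjusted p of 0.291. Over the 19 genes 14 differences were positive and the median was 0.06. Prom1, a surface protein of crypt progenitors, gave 0.41 with an adjusted p of 0.185, and Lgr4, the broadly expressed relative of Lgr5, -0.26 with an adjusted p of 0.129.

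Among genes of reserve and revival stem cells, 10 of 12 were measured and none passed, with 9 positive differences and a median of 0.11. Krt19, a keratin of crypt cells, gave 0.27 (adjusted p = 0.154, limma) and Anxa1, an annexin of injured epithelium, 0.36 (adjusted p = 0.202). Krt19 passed under 4 of the 25 other settings, among them the low number range alone, with 0.51 and an adjusted p of 0.00849. In the high range alone it gave 0.04, with an adjusted p of 0.937.

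No gene of the Wnt pathway itself passed the threshold. Of 24 Wnt ligands, secretion factors and R-spondins, none passed (median -0.02). Wls, the carrier that brings Wnt proteins to the surface, gave 0.25 (adjusted p = 0.147) and Rspo2, an R-spondin, 0.12 (adjusted p = 0.496). None of 17 Wnt and R-spondin receptors passed (median -0.07), and besides Lgr4 the co-receptor Lrp6 gave -0.18 (adjusted p = 0.187). None of 16 secreted and membrane inhibitors passed (median 0.03), with 0.29 for Sfrp5 and 0.14 for Frzb, both secreted decoys of Wnt.

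Downstream of the receptors, none of 14 measured genes of the destruction complex and cytoplasmic signalling passed (median -0.02). Nkd2, an inhibitor acting on Dishevelled, gave -0.33 (adjusted p = 0.269, limma; 0.0481 when replicate numbers formed a block) and Gsk3b, the kinase that marks beta-catenin for destruction, -0.13 (adjusted p = 0.357). The groups of Gsk3b did not overlap (highest TUDCA array 10.196, lowest vehicle array 10.202), as in 1.98% of all probe sets. Of 13 measured nuclear factors none passed (median -0.02). Bcl9, a coactivator of beta-catenin, came nearest with -0.34 (adjusted p = 0.0779) and passed under 5 of 25 other settings, a threshold of 0.1 among them. Tle1, a corepressor, gave 0.33 (adjusted p = 0.143), with 0.61 in the low and 0.05 in the high number range. None of 17 measured other Wnt targets passed, with 14 positive differences and a median of 0.07. Most of these genes are also in lists above, such as Cd44, Ephb3 and Cdca7 among the columnar stem cell genes. The counts of positive differences in these lists are thus not separate observations. Cdca7 gave 0.15 and Tiam1 0.13, and Axin2 was at 0.01, as given above.

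In the signalling of the crypt niche by Notch, BMP and EGF, 27 of 30 genes were measured and 1 passed. Id1, a helix-loop-helix inhibitor and a direct target of BMP signalling, was higher with TUDCA by 0.61 ± 0.12 on the log2 scale (SE, n = 6 and 6; adjusted p = 0.0156, limma). On TUDCA arrays Id1 ran from 8.65 through 8.90 to 9.13 and in vehicle from 7.93 through 8.37 to 8.64, without overlap. The call ended without TUDCA replicate 1 (adjusted p = 0.0792), without vehicle replicate 6 (adjusted p = 0.0642) and within the high number range alone. The median over the 27 genes was -0.01, with 13 positive and 14 negative.

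**Figure D5:**
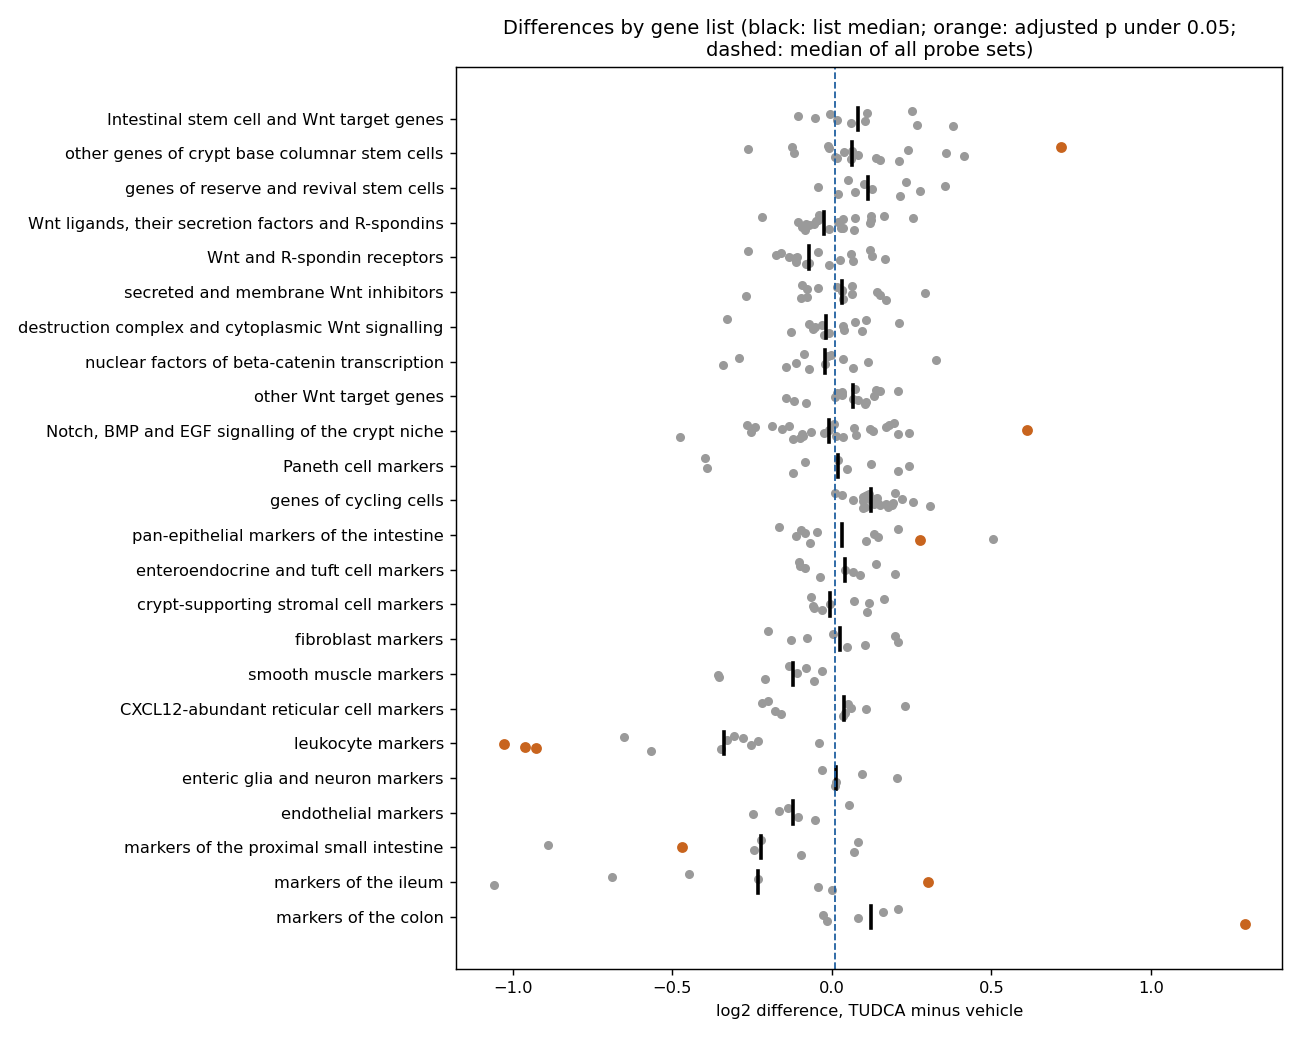
Log2 differences, TUDCA minus vehicle, of the measured genes of each list, 1 point per gene, with genes past the threshold in orange, list medians as black bars and the median of all probe sets, 0.01, as a dashed line. The stem cell and Wnt lists centre near 0 with single genes beyond; the 12 leukocyte markers all lie below 0, with a median of -0.34.

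Markers of the other cells in the tissue set the frame for these values. All 25 measured genes of cycling cells had a positive difference, with a median of 0.12, and none passed. Pcna, the replication clamp, gave 0.22 (adjusted p = 0.244, limma) and the mitotic cyclin Ccnb2 0.31 (adjusted p = 0.31). Without TUDCA replicate 1, 21 of the 25 were positive, and within the high number range 18. The summed level of this list, as a mean of log2 values, ran from 7.84 to 8.31 in TUDCA and from 7.78 to 8.23 in vehicle. Its part in the values of the stem cell genes was not tested.

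Of the 16 Paneth cell markers 9 were measured and none passed (median 0.02), with -0.40 for the defensin Defa26 (adjusted p = 0.221) and 0.21 for the protease Mmp7 (adjusted p = 0.537). Within the low number range the list median was 0.27 and within the high range -0.43, and Defa26 gave -0.02 and -0.78. Mmp7 passed without vehicle replicate 5, with 0.41 and an adjusted p of 0.0209 by limma. Defensins share long stretches of sequence, so their probe sets may not separate them. Of 12 epithelial markers 1 passed: Krt8, a keratin of simple epithelia, was higher by 0.28 (adjusted p = 0.0169, limma). That call ended without the number range (adjusted p = 0.15) and when replicate numbers formed a block (adjusted p = 0.131). It also ended when TUDCA replicate 1 (adjusted p = 0.0642) or TUDCA replicate 2 (adjusted p = 0.0853) was left out, and within the high number range alone (adjusted p = 0.507). The list's median was 0.03.

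Of the 12 leukocyte markers all 12 had negative differences and 3 passed as lower with TUDCA: Cd3e by -0.93, Cd8a by -1.03 and Cd3g by -0.96 on the log2 scale, subunits of the T cell receptor complex and the coreceptor of cytotoxic T cells. The call of Cd3g, with an adjusted p of 0.048, ended under 19 of 25 other settings. Within the high number range alone none of the 12 passed. Within the low range alone neither Cd3e (adjusted p = 0.0713, limma) nor Cd3g (adjusted p = 0.115) did. Cd8a ran from -1.47 in the low to -0.59 in the high range. The mean of the list ran from 6.80 to 7.65 in TUDCA and from 7.57 to 8.10 in vehicle, and 11 of the 12 markers were above the median level of all probe sets. The part of these cells in the values of the stem cell genes was not tested.

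All 8 smooth muscle markers had negative differences and none passed (median -0.12, with -0.36 for Actg2 and -0.35 for Des). Without TUDCA replicate 1, 4 of the 8 were positive, and after renewed quantile normalisation 1. Without vehicle replicate 5 the median was -0.32 and 2 genes passed as lower, Actg2 with -0.54 (adjusted p = 0.0169, limma) and Des with -0.58 (adjusted p = 0.016). Array weights called 1, Actg2. No gene passed among 9 enteroendocrine and tuft cell markers (median 0.04), 9 markers of crypt-supporting stroma (-0.01), 8 of fibroblasts (0.03), 10 of reticular cells (0.04), 5 of enteric glia and neurons (0.01) and 6 of endothelium (-0.12). Foxl1, a marker of the stromal cells that supply Wnt to the crypt, gave 0.11 (adjusted p = 0.659, limma) and Rspo3, an R-spondin of the same stroma, 0.16 (adjusted p = 0.697).

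The labels do not give the part of the small intestine that was taken, and stem cell genes vary along it. In a list of 7 genes chosen for the proximal small intestine, Cubn was lower by -0.47 (adjusted p = 0.0254, limma), with a list median of -0.22. Cubn is known mainly from the ileum, so its difference is not read as one of the proximal segment. Of 7 markers of the ileum, Guca2a was higher by 0.30 (adjusted p = 0.0304, limma). Guca2a had the only positive difference of this list. The other 6 were negative, down to -1.06, and the list median was -0.23. Of 6 measured markers of the colon, Car1 was higher by 1.29 (adjusted p = 0.0233, limma), with a list median of 0.12. Only 1 of the 6 was above the median level of all probe sets, and Car1 was among those below it. The calls of Cubn, Guca2a and Car1 ended under 8, 14 and 5 of the other settings, respectively. The part of the sampled segment in the values of the stem cell genes was not tested.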

How the data were processed

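The authors deposited 1 table of log2 expression values, 1 value per probe set and array for 23991 probe sets and 12 arrays. The submitters' processing notes name oligo and RMA (which corrects background, makes array distributions alike by quantiles and sums up probes) and no versions. Other steps are not given in the sources used here. Per the labels' protocols, total RNA was isolated with a column kit and amplified and biotin-labelled with a low-input whole-transcript kit. Quantile normalisation hides a shift of all transcripts in 1 direction, and no detection calls were used.

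Names came from the platform annotation, in which 21557 probe sets name 1 gene, 787 several and 1647 none. R 4.3.3 and limma 3.58.1 fitted all of them (lmFit, eBayes with a variance trend; terms for number range and treatment; two-sided; Benjamini-Hochberg over all probe sets; threshold 0.05). The fit was tested on simulated data. Going by sample numbers, arrays were taken as separate mice; if they were not, p-values measure only technical spread. Mean levels were ranked over all probe sets only to give a percentile or a place above or below the median.

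The 10 genes and the 23 further lists (283 of 310 genes measured) were chosen with earlier results of these data known. Named were all 10 genes; of each list the genes past the threshold or, where none passed, up to 2 with the smallest p; and the 4 genes most correlated with Lgr5 and with Olfm4. Some genes stand in several lists. Prom1 was added after its values were seen. Coordinates and promoters are RefSeq's (GRCm38.p6). Alternatives varied the terms, filters, scaling, variance model, threshold and arrays used.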

Additional observations from a re-analysis of the deposited data

Results flagged for a closer look

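One array stood far from the other 5 of its group by Dixon's test for 7 of the 102 groups of 6 arrays formed by 51 named genes; chance alone flags about 1 group in 20. Among the 10 stem cell and Wnt target genes this held for Bmi1 alone, where TUDCA replicate 6 reached 6.15 on the log2 scale and the next array 5.77. The same array was the lowest of its group for 8 of the other 9 genes. Bmi1 gave a positive difference with and without it.

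Further such arrays were vehicle replicate 1 for Gsk3b, the highest at 10.33, and vehicle replicate 3 for Tle1, the lowest at 6.49. Vehicle replicate 4 was the highest for Ccnb2 at 8.87, and vehicle replicate 5 the lowest for Des at 9.93. TUDCA replicate 2 was the lowest for Cd3e at 6.69 and for Cd3g at 6.24.

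Rnf43 and Sox9 were flagged for differences of unlike sign in the number ranges. The rule asked that all TUDCA arrays of a range lie on the same side of its vehicle mean. Rnf43 gave 0.10 in the low and -0.20 in the high range, and Sox9 gave 0.13 and -0.14. The interaction of treatment and number range, tested with limma, did not pass for either (Rnf43 adjusted p = 0.758, Sox9 adjusted p = 0.765). Axin2 and Znrf3 also had unlike signs, did not meet the rule and had lower interaction adjusted p-values (0.676 and 0.673, limma).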

How the results depend on the processing

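Under 25 alternatives no stem cell or Wnt target gene was called lower, and none higher except Lgr5 without TUDCA replicate 6; across arrays left out in turn, the count of these genes called higher ran from 0 to 1. The interaction called 0 of the 10 without a variance trend and with each array left out in turn. The difference of Lgr5 ran from 0.26 to 0.47 and its adjusted p from 0.0386 to 0.517. Same-numbered arrays correlated in their deviations between -0.06 and 0.26. They were not set against differently numbered arrays, so whether the numbers pair the arrays was not tested. With the replicate number as a block, 0 of the 10 genes passed, Lgr5 had an adjusted p of 0.0542 and all probe sets gave 213 higher and 409 lower calls; with block and number range together, the calls were 85 and 190. Those counts were 241 and 364 as reported, 6 and 3 within the high range alone, 436 and 526 with array weights, 177 and 288 without a variance trend, and 91 and 151 without TUDCA replicate 1.

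The signs of 10 genes turned, none of them past the threshold, and the cause was not tested. Axin2 gave -0.023 without the number range and with the block, and -0.052 with block and range. Ascl2 gave -0.058 with block and range and -0.030 in the low range alone. In the low range alone Rnf43 gave 0.095, Znrf3 0.054, Sox9 0.13, Foxl1 -0.0034 and Rspo3 -0.021. In the high range alone Axin2 gave -0.16, Cdca7 -0.021 and Tek, an endothelial receptor, 0.075. Array weights gave 0.0086 for Rnf43 and 0.074 for Sox9. With arrays left out in turn Axin2 ran from -0.089 to 0.10, Rnf43 from -0.10 to 0.071, Sox9 from -0.091 to 0.15, Rspo3 from -0.0010 to 0.23 and Trpm5, a tuft cell channel, from -0.20 to 0.035. Of the 10 genes between 5 and 9 were positive. Bmi1 was among the dim probe sets and has no value where those were left out.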
